A study of Mus musculus with 65 samples.

Results

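Nascent transcription of the 9 genes for the main nuclear histone acetyltransferases (Ep300, Crebbp, Kat2a, Kat2b, Kat5, Kat6a, Kat6b, Kat7 and Kat8) was followed in mouse erythroleukemia cells after acetylation was blocked with A485 or deacetylation was blocked with LBH589. The genes were taken by symbol from 15020 symbols, each read as its transcript with the highest mean. All transcripts of a gene held the same values, so this choice changed nothing. The assay was PRO-seq, in which engaged RNA polymerases add a tagged nucleotide in isolated nuclei, so that a count reports polymerases on a gene and not its stored mRNA. Every library came from 1 line of MEL cells in which the corepressor Mtg16, the product of Cbfa2t3, carries an FKBP tag and 2 HA tags, the DMSO controls included. The compounds were 250 nM dTAGV1, which sends the tagged Mtg16 to the proteasome (the degrader), 10 µM A485, which inhibits the catalytic domain of p300 and CBP, and 5 nM LBH589, also called panobinostat, which blocks histone deacetylases.

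The A485 series held both agents together, A485 alone and the degrader alone, each for 15 min, 30 min and 1 h, and DMSO. It had 3 libraries a group, except 2 for A485 at 30 min and 2 for both agents at 30 min. The LBH589 series held LBH589 for 30 min and for 1 h, and DMSO, with 3 libraries each. A time course began with DMSO and followed the degrader over 15 min, 30 min, 1 h (each in triplicate, as DMSO was) and 2 h (2 libraries). Cells treated for 2 h were then washed free of it for 30 min (2 libraries used), 1 h (1) and 2 h (2). A last series, without DMSO, washed cells free of the degrader in the presence of LBH589 for 30 min or 1 h, with 3 libraries each; the labels give the degrader treatment as 2 h and do not say when LBH589 was added. The labels do not say that replicates were separate cultures, so p-values measure the spread between libraries, which may be technical.

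Acetyltransferases move an acetyl group from acetyl-CoA to lysines of histones and other proteins, and histone deacetylases take it off again. They fall into families: p300 and CBP are closely related coactivators drawn to enhancers by many transcription factors, Gcn5 and PCAF (Kat2a and Kat2b) belong to the GNAT family and work in the SAGA and ATAC complexes, and Tip60, Moz, Morf, Hbo1 and Mof (Kat5, Kat6a, Kat6b, Kat7 and Kat8) form the MYST family. In the erythroid lineage, p300 and CBP act with factors such as GATA1 and KLF1.

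Of 10 erythroid markers, 8 were in the tables and 7 of them exceeded 100 normalised counts in DMSO cells of each series, including Gata1, Tal1, Epor and Tfrc. The globin gene Hbb-bt did not, at 22.37 in the A485 series, 34.34 in the LBH589 series and 21.63 in the time course. Hba-a1 and Slc4a1 were not in the tables. The 2 lymphoid markers in the tables (of 5) were at 2.39 and 13.3 in the A485 series and reached at most 42.67 in any series, while the stromal marker Pdgfrb stood at 376.56 in the A485 series. Depth, as whole reads recovered from the values, was 7454000 to 61981000 reads per library in the A485 series. The LBH589 series had 28147000 to 44810000, its washout series 13455000 to 29083000 and the time course 16195000 to 62385000. Cbfa2t3, the tagged gene, rose after 1 h of degrader in the A485 series (log2 change 2.18 ± 0.11, SE, limma adjusted p = 4.73e-17) and fell after 1 h of A485 (-4.13 ± 0.11, adjusted p = 1.16e-26). In the time course, 5 libraries named for the degrader (1 h and 2 h) have titles that name A485. Cbfa2t3 was higher than in DMSO in these groups (log2 change 2.74 ± 0.29 at 1 h and 2.85 ± 0.32 at 2 h), the direction of the degrader and not of A485 in the A485 series. In that time course, degrader 15 min replicate 2 and degrader 30 min replicate 3 stood apart from their own groups (mean correlation of deviations with their group -0.36 and -0.22 over 2000 genes), so results of that series are given with and without them. In comparisons of other groups, leaving them out changes the shared estimate of spread and not the log2 changes.

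Promoters of the 3 genes that fell most under the compounds are printed here because the results turn on them. They come from RefSeq on GRCm38.p6, each as 300 bases from 250 before to 50 after an annotated start, 5′ to 3′ on the gene's strand. For all 3 genes that start lies inside the full annotated span of the gene. Promoters were found for 8 of the 9 genes. Kat2b (chr17:53566721-53567020, plus strand) fell under A485, and Kat5 (chr19:5610045-5610344, minus strand) and Kat2a (chr11:100712418-100712717, minus strand) fell under LBH589. Capitals mark matches, on either strand and with overlaps allowed, to the TATA box TATAAA, the E-box CACGTG, the cAMP response element TGACGTCA, the erythroid factor motif AGATAA, the ETS motif CCGGAAG, the GC box GGGCGG or the NRF1 motif GCGCATGC.
Kat2b: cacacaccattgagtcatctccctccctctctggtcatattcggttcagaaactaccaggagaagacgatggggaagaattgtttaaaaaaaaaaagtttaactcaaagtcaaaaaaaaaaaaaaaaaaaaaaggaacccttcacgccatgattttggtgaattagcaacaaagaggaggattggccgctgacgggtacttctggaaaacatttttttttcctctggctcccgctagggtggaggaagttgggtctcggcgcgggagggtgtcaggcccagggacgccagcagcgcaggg
Kat5: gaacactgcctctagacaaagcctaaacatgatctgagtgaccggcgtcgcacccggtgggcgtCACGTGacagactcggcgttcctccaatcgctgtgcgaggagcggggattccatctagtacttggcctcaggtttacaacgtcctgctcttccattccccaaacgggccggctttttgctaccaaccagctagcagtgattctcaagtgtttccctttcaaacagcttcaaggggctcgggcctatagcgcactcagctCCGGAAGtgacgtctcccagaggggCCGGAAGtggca
Kat2a: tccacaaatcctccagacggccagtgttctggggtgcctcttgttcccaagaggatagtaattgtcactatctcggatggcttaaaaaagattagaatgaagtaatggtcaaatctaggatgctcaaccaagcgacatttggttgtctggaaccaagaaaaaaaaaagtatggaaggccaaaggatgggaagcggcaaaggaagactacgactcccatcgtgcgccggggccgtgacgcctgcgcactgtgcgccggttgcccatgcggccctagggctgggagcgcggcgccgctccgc

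The windows differed in base composition. Kat2b's was 47% G and C and Kat2a's 54.3%, and neither held any of the 7 motifs, which says only that these letters are not in these windows. Kat5's, 57% G and C, held 1 E-box and 2 ETS motifs. The windows of Ep300, Crebbp and Kat6b were 72.3%, 82% and 78.3% G and C and held 1, 2 and 8 GC boxes. Those of Kat7 and Kat8 were each 53%, within the range of Kat2b, Kat2a and Kat5. The median was 52.7% over 32851 promoters. Over all those promoters an E-box was found in 7.2%, the ETS motif in 8.9% and a GC box in 35.7%. Over the 8 windows the ETS motif occurred in 3 (Kat5, Kat7 and Kat8), a GC box in 4 and an E-box in 1, while the TATA box, cAMP response element, erythroid factor and NRF1 motifs were in none of the 8 and in 13.6%, 1.8%, 11.2% and 2.7% of all promoters. These matches are a description and were not tested against the responses.

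In DMSO cells of the A485 series the genes were ordered by normalised count per kilobase of gene span, since longer genes collect more polymerases. Kat7 was highest at 92.1 ± 1.8 (SD, n = 3), then Kat8 at 67.5 ± 2.1, Ep300 at 51.2 ± 0.87 and Kat5 at 49.8 ± 4.2. Kat2a at 39.7 ± 0.08, Kat6a at 37.8 ± 0.44, Kat2b at 30.4 ± 0.80, Crebbp at 22.1 ± 0.34 and Kat6b at 13.4 ± 0.15 followed. Ep300 and Kat5 overlapped, and no other neighbours in this order did. In each of the 3 series with DMSO, Kat7 had the highest mean, Kat8 the next and Kat6b the lowest. In the LBH589 series the libraries of Kat8 (80.1 ± 1.9) overlapped those of Kat2a (79.0 ± 2.1). Ep300 exceeded its paralog Crebbp per kilobase in all 3, at 62.4 ± 0.51 against 30.8 ± 0.96 in the LBH589 series and 87.1 ± 0.49 against 40.3 ± 1.2 in the time course. The place of Kat2a varied: it stood at place 3 of 9 in the LBH589 series, 5 in the A485 series and 6 in the time course.

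A485 lowered Kat2b at every time, and the other 8 genes moved less than Kat2b after 1 h. Kat2b (chr17:53566774-53672721 on GRCm38.p6, 105.9 kb) encodes PCAF, a GNAT acetyltransferase that binds p300 and CBP. In DMSO it held 3184, 3322 and 3167 normalised counts. It held 2442, 2598 and 2468 after 15 min of A485, 1992 and 1977 after 30 min, and 1688, 1796 and 1775 after 1 h. The groups did not overlap with DMSO or with each other, and each was lower than the one before. It fell by 22.4%, 38.4% and 45.6%, or log2 changes of -0.37 ± 0.04, -0.70 ± 0.05 and -0.88 ± 0.04 (SE, limma adjusted p = 3.97e-09, 5.93e-15 and 3.23e-19). The further step from 30 min to 1 h also passed (-0.18 ± 0.05, adjusted p = 0.00599), a call lost without A485 30 min replicate 1 (adjusted p = 0.0607). The log2 change at 1 h ranked at the 11.5th percentile of all genes tested, so Kat2b was not among the most steeply lowered genes of these cells.

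Of the 9 genes, 3 passed after 15 min, with 1 higher and 2 lower. After 30 min 6 passed, split evenly, and after 1 h 6 passed, of which 4 were higher. A485 changed much of the transcriptome: 55.1% of the 12597 genes tested passed at 15 min, 58.1% at 30 min and 62.6% at 1 h. The members' shares were thus below the background at 15 min and near it at 30 min and 1 h. The values are scaled so that a change shared by most genes would be invisible, and in bulk nuclei fewer cells and less RNA per cell cannot be told apart. The scaling matters here: with quantile normalization the median of all genes shifted to 0.11, 0.13 and 0.15 on the log2 scale at 15 min, 30 min and 1 h. The share of calls that were higher was 46.8%, 46.7% and 46.9% as deposited and 63.6%, 63.8% and 64.1% with quantile normalization, and 8 members passed at each time, 7 higher and 1 lower. Kat2b was the 1 lower gene each time, at -0.25, -0.50 and -0.67. Over all genes, 7729, 8084 and 8722 passed with quantile normalization at the 3 times, against 6941, 7323 and 7889 as deposited.

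**Figure D1:**
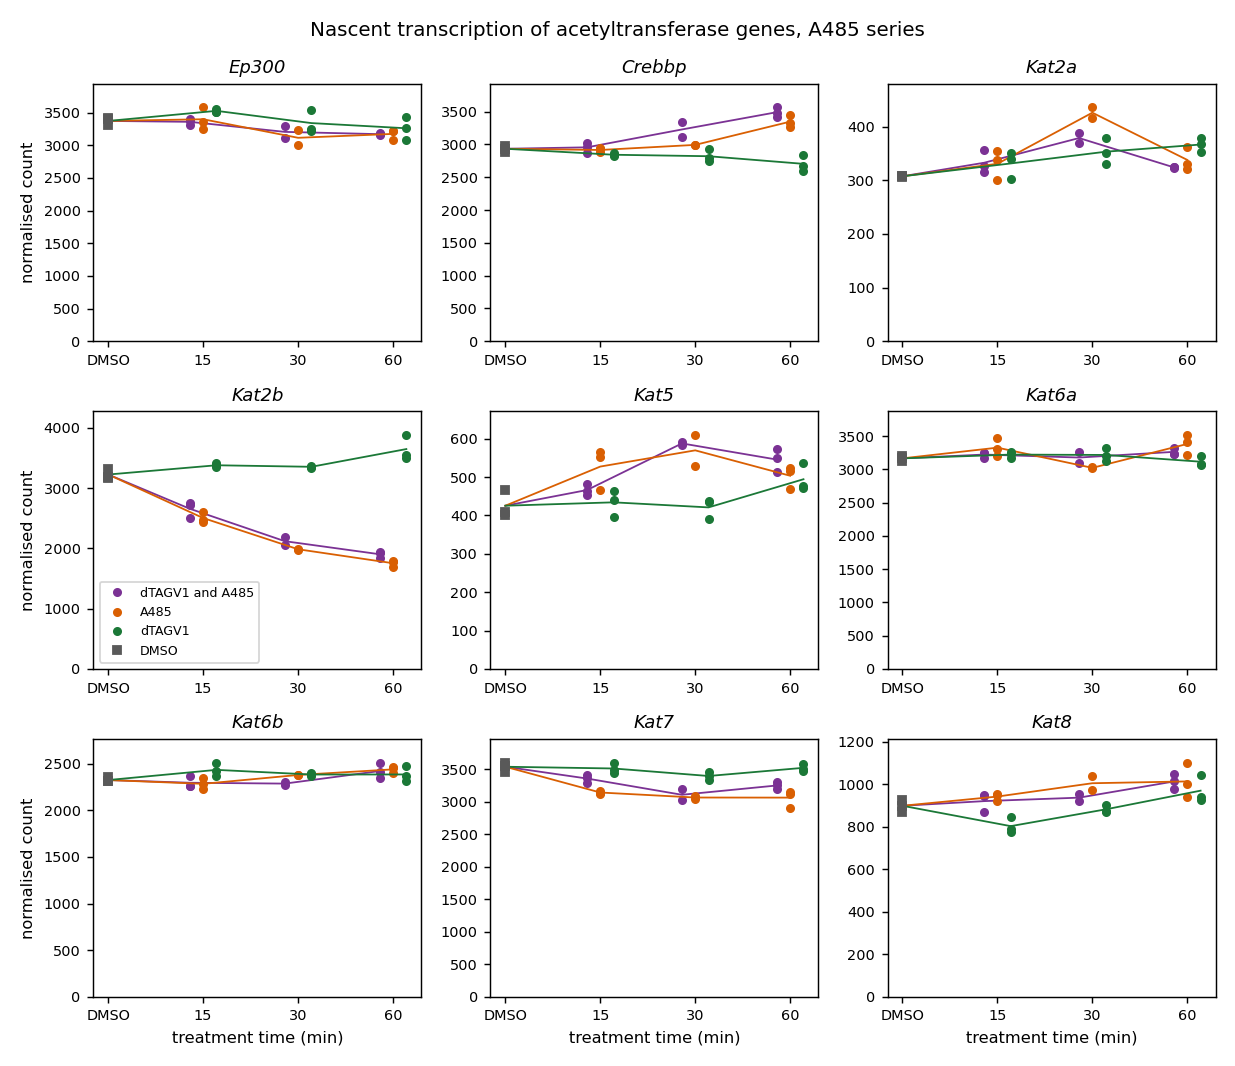
Normalised count (y axis, from 0) of each acetyltransferase gene in every library of the A485 series against treatment time (x axis, min, evenly spaced by group), with lines through the group means from the DMSO mean. Kat2b fell with A485 and with both agents (1688 to 1941 at 1 h), while the degrader alone left it at 3504 to 3882.

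The targets of A485 themselves moved little in nascent transcription. Ep300 (p300, chr15:81586209-81652077 on GRCm38.p6) held 3086, 3216 and 3224 after 1 h of A485, against 3401, 3413 and 3308 in DMSO. These groups did not overlap, but the difference did not pass (log2 change -0.09 ± 0.04, 95% interval -0.17 to -0.004, adjusted p = 0.0633). With quantile normalization Ep300 passed at 1 h as higher (0.15, limma adjusted p = 0.000861). At 30 min Ep300 was lower by a log2 change of -0.12 ± 0.05 (adjusted p = 0.031). That sign turned under quantile normalization, where Ep300 passed as higher (0.12, adjusted p = 0.0121). The call as lower was lost in edgeR (adjusted p = 0.0551) and without A485 30 min replicate 1 (0.374), DMSO replicate 4 (0.0704) or DMSO replicate 5 (0.0772). Crebbp (CBP, chr16:4081334-4213957 on GRCm38.p6) held 3451, 3322 and 3269 after 1 h, against 2937, 2887 and 2978 in DMSO, with no overlap. It rose by 14.1% (0.19 ± 0.04, adjusted p = 3.67e-05), after -0.01 ± 0.04 at 15 min and 0.03 ± 0.04 at 30 min, neither of which passed. Between 30 min and 1 h of A485 Crebbp rose by 0.16 ± 0.04 (adjusted p = 0.0053), where Ep300 had 0.03 ± 0.05 and did not pass. The median log2 change in this step was 0.06 over all genes of at least 60 kb.

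Kat2a and Kat5, the shortest of the 9 genes at 7.7 and 8.5 kb, had their highest means at 30 min among the 3 times of A485. Kat2a (Gcn5, chr11:100704746-100712485 on GRCm38.p6), the other GNAT member, held 437 and 416 after 30 min of A485, against 307.3, 308.1 and 306.8 in DMSO. Both treated libraries lay above all DMSO libraries, and the gene rose by 38.4% (0.47 ± 0.09, adjusted p = 2.58e-05). At 15 min and 1 h its values were 0.10 ± 0.08 and 0.13 ± 0.08, which did not pass, and 1 h stood below 30 min (-0.33 ± 0.09, adjusted p = 0.00647; 0.0869 without A485 30 min replicate 1 and 0.0807 with only the groups compared). Kat5 (Tip60, chr19:5603014-5611556 on GRCm38.p6), which acetylates histone H4 and the DNA damage kinase ATM, held 551, 465 and 566 after 15 min, 610 and 529 after 30 min and 517, 525 and 469 after 1 h of A485. In DMSO Kat5 held 409, 401 and 466, so that 1 library at 15 min lay within the DMSO range. Kat5 rose at all 3 times (0.31 ± 0.08, 0.42 ± 0.09 and 0.24 ± 0.08, adjusted p = 0.00185, 0.000196 and 0.01), and the last call was lost without DMSO replicate 5 (adjusted p = 0.0576). Over all genes under 15 kb the median log2 change was 0.00, 0.05 and -0.03 at the 3 times, and -0.09 for 1 h against 30 min.

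Among the remaining MYST genes, Kat7 was lower and Kat8 somewhat higher. Kat7 (Hbo1, chr11:95271853-95310246 on GRCm38.p6), which acetylates H3 and H4 and licenses replication origins, held 3124, 2907 and 3156 after 1 h of A485, against 3548, 3463 and 3601 in DMSO, with no overlap. Its log2 changes were -0.17 ± 0.03, -0.21 ± 0.04 and -0.21 ± 0.03 (adjusted p = 6.37e-05, 1.9e-05 and 2.4e-06). This direction depended on the scaling: with quantile normalization the values were -0.04, 0.04 and 0.03, and none passed, although each lay below the median of all genes there (-0.15, -0.09 and -0.11 relative to it). Kat8 (Mof, chr7:127912517-127925838 on GRCm38.p6), the H4 lysine acetyltransferase of the MSL and NSL complexes, was higher at 30 min (0.16 ± 0.06, adjusted p = 0.0301) and at 1 h (0.17 ± 0.06, adjusted p = 0.00975). The first call was lost without A485 30 min replicate 1 (adjusted p = 0.246) or DMSO replicate 4 (0.0987) or 5 (0.0543), and the second without A485 1 h replicate 1 (0.111). Kat6a (Moz, chr8:22859442-22943259 on GRCm38.p6), a coactivator needed for blood stem cells, passed as higher at 1 h (0.09 ± 0.04, adjusted p = 0.0244), a call lost without A485 1 h replicate 1 (0.154), A485 1 h replicate 3 (0.067) or DMSO replicate 5 (0.0782). Kat6b (Morf, chr14:21499216-21672478 on GRCm38.p6), the paralog of Kat6a, had values from -0.03 to 0.07 and did not pass at any of the 3 times.

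The effect of A485 was measured again in degrader-treated cells, by comparing both agents with the degrader alone. The groups of this comparison share no library with A485 against DMSO, but its estimate of spread comes from the same model of all groups. At 30 min and 1 h, A485 and both agents carry other replicate numbers (1 to 3) than DMSO and the degrader (4 to 6). A difference between these sets of libraries would enter both comparisons alike and cannot be told apart from A485. At 15 min all groups carry 4 to 6. There Kat2b was lower in both comparisons, and Crebbp passed in neither. Kat2b held 1846, 1918 and 1941 with both agents for 1 h, against 3504, 3882 and 3552 with the degrader alone. The groups did not overlap, and Kat2b fell by 21.4%, 36.8% and 47.8% at 15 min, 30 min and 1 h (-0.35 ± 0.04, -0.66 ± 0.05 and -0.94 ± 0.04, adjusted p = 1.12e-08, 2.34e-14 and 4.53e-20). Crebbp again rose, here by 0.19 ± 0.04 at 30 min (adjusted p = 0.000129) and by 0.37 ± 0.04 at 1 h (adjusted p = 1.22e-10), when it held 3485, 3570 and 3420 with both agents, against 2845, 2600 and 2666 with the degrader. Kat5 was higher at 30 min (0.48 ± 0.09, adjusted p = 3.01e-05) and did not pass at 15 min (0.10 ± 0.08) or 1 h (0.14 ± 0.08). Kat7 was lower at 30 min (-0.13 ± 0.04, adjusted p = 0.00393) and 1 h (-0.12 ± 0.03, adjusted p = 0.00349), and both signs turned under quantile normalization (0.10 and 0.12). The 30 min call was also lost without replicate 1 of both agents (adjusted p = 0.111). Kat2a did not pass at 15 min (0.01 ± 0.08) or 30 min (0.10 ± 0.09) and passed as lower at 1 h (-0.18 ± 0.08, adjusted p = 0.0483), a call lost in 9 of 13 alternatives.

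In that setting 3, 4 and 4 members passed at 15 min, 30 min and 1 h, against 54.3%, 59.6% and 62.6% of all genes. At 15 min these were Kat8 (0.20 ± 0.06) as higher and Kat2b and Kat6b (-0.08 ± 0.04, adjusted p = 0.0459) as lower, and Kat6b lost the call in 7 alternatives. Calls that were higher made up 45.6%, 47.2% and 48.3% of all calls as deposited, and 63.8%, 64% and 65.6% with quantile normalization. Whether A485 acted differently with and without the degrader was tested as an interaction. No member passed at 15 min in limma or edgeR, where 5.32% of all genes did, although Kat7 had an unadjusted p under 0.05. At 1 h 1 member passed, Crebbp (0.18 ± 0.05, adjusted p = 0.0204), against 11.5% of genes. That call was lost without DMSO replicate 6, degrader 1 h replicate 5, A485 1 h replicate 3 or both agents 1 h replicate 2 (adjusted p 0.0517 to 0.0704). For Kat2b the interaction at 1 h was -0.06 ± 0.06 (95% interval -0.18 to 0.06, adjusted p = 0.58). For Kat2a it was -0.31 ± 0.11 (adjusted p = 0.0627), which did not pass. Between 30 min and 1 h of A485 alone, 4 members passed (Crebbp and Kat6a higher, Kat2a and Kat2b lower), against 18.2% of genes, and 2 without A485 30 min replicate 1. Gene length moved with this step: the median log2 change was 0.06 over genes of at least 60 kb and -0.09 under 15 kb. Crebbp (132.6 kb) and Kat6a (83.8 kb) are long, as is Kat2b (105.9 kb), which was lower, and Kat2a (7.7 kb) is short. The part of gene length in these 4 values was not tested.

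LBH589 gave another order of genes. After 1 h Kat5 and Kat2a had fallen furthest, 6 others had fallen by less, and Kat2b alone was higher. Kat5 held 553, 568 and 549 in DMSO, 421, 395 and 364 after 30 min of LBH589 and 280.4, 296 and 251 after 1 h. The 3 groups did not overlap, and Kat5 fell by 29.4% at 30 min (-0.50 ± 0.07, adjusted p = 3.74e-06) and by 50.5% at 1 h (-1.01 ± 0.07, adjusted p = 8.06e-13). Kat2a held 625, 616 and 594 in DMSO, 494, 453 and 472 after 30 min and 379, 343 and 336 after 1 h. It fell by 22.6% at 30 min (-0.37 ± 0.07, adjusted p = 5.07e-05) and fell by 42.3% at 1 h (-0.79 ± 0.07, adjusted p = 1.15e-11), again with no overlap between groups. These 1 h values ranked at the 0.797th percentile of all genes for Kat5 and the 2.55th for Kat2a. Over all 4811 genes under 15 kb the median log2 change at 1 h was -0.02, a value near 0.

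Kat2b held 3168, 3223 and 3125 after 1 h of LBH589, against 2936, 3061 and 3011 in DMSO. The groups did not overlap, and the difference was small (5.65%, 0.08 ± 0.03, adjusted p = 0.0412); it lost the call in 5 of 13 alternatives, and was 0.19 with quantile normalization. Kat7 was not lower until 1 h: it held 3882, 3790 and 3931 after 30 min, above the 3727, 3744 and 3623 of DMSO, and 2805, 3044 and 2934 after 1 h. At 30 min the difference did not pass (0.06 ± 0.04, adjusted p = 0.15), although it did as higher with quantile normalization (0.09, adjusted p = 0.0357). At 1 h Kat7 was lower (-0.34 ± 0.04, adjusted p = 1.42e-09), and 1 h was below 30 min by -0.40 ± 0.04 (adjusted p = 1.2e-10). Kat8 likewise did not pass at 30 min (adjusted p = 0.995) and was lower at 1 h (-0.29 ± 0.06, adjusted p = 4.86e-05).

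Kat6b and Kat6a fell at both times. Kat6b held 1999, 2043 and 2003 after 1 h, against 2540, 2563 and 2459 in DMSO, and fell by 20.1% (-0.32 ± 0.04, adjusted p = 5.73e-09). At 30 min it was lower by -0.11 ± 0.04 (adjusted p = 0.0137), a call lost in 5 alternatives. Kat6a was lower at 30 min and at 1 h (-0.12 ± 0.03 and -0.23 ± 0.03, adjusted p = 0.00492 and 4.66e-07), and both calls held at smaller values with quantile normalization (-0.08 and -0.09). Ep300 and Crebbp were slightly lower at 1 h (-0.15 ± 0.03 and -0.14 ± 0.04, adjusted p = 0.000339 and 0.00144), and neither passed at 30 min. Both calls at 1 h were lost with quantile normalization (-0.01 and -0.001, adjusted p = 0.731 and 0.981). In all, 4 members passed after 30 min, each of them lower, and 9 after 1 h, with Kat2b the 1 higher gene, against 39.7% and 67% of the 12553 genes tested. With quantile normalization 4 passed after 30 min, with Kat7 as the 1 higher gene and Kat6b lost (adjusted p = 0.0594), and 7 after 1 h, of which 6 were lower. Over all genes 4854 and 8291 passed in that fit, against 4978 and 8412 as deposited. The median of all genes was 0.00 at 1 h, with 48.3% of calls higher. Between 30 min and 1 h, 8 members passed, all lower, against 56.9% of genes. With quantile normalization 6 passed in that step: 5 were lower, Kat2b was higher (0.12, adjusted p = 0.00235), and Ep300, Crebbp and Kat6a did not pass (adjusted p 0.707 to 0.793). Over all genes 7061 passed there, against 7141 as deposited. The call of Crebbp was also lost without LBH589 30 min replicate 1 (0.059), and those of Crebbp (0.0508) and Ep300 (0.0593) without LBH589 1 h replicate 1.

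**Figure D2:**
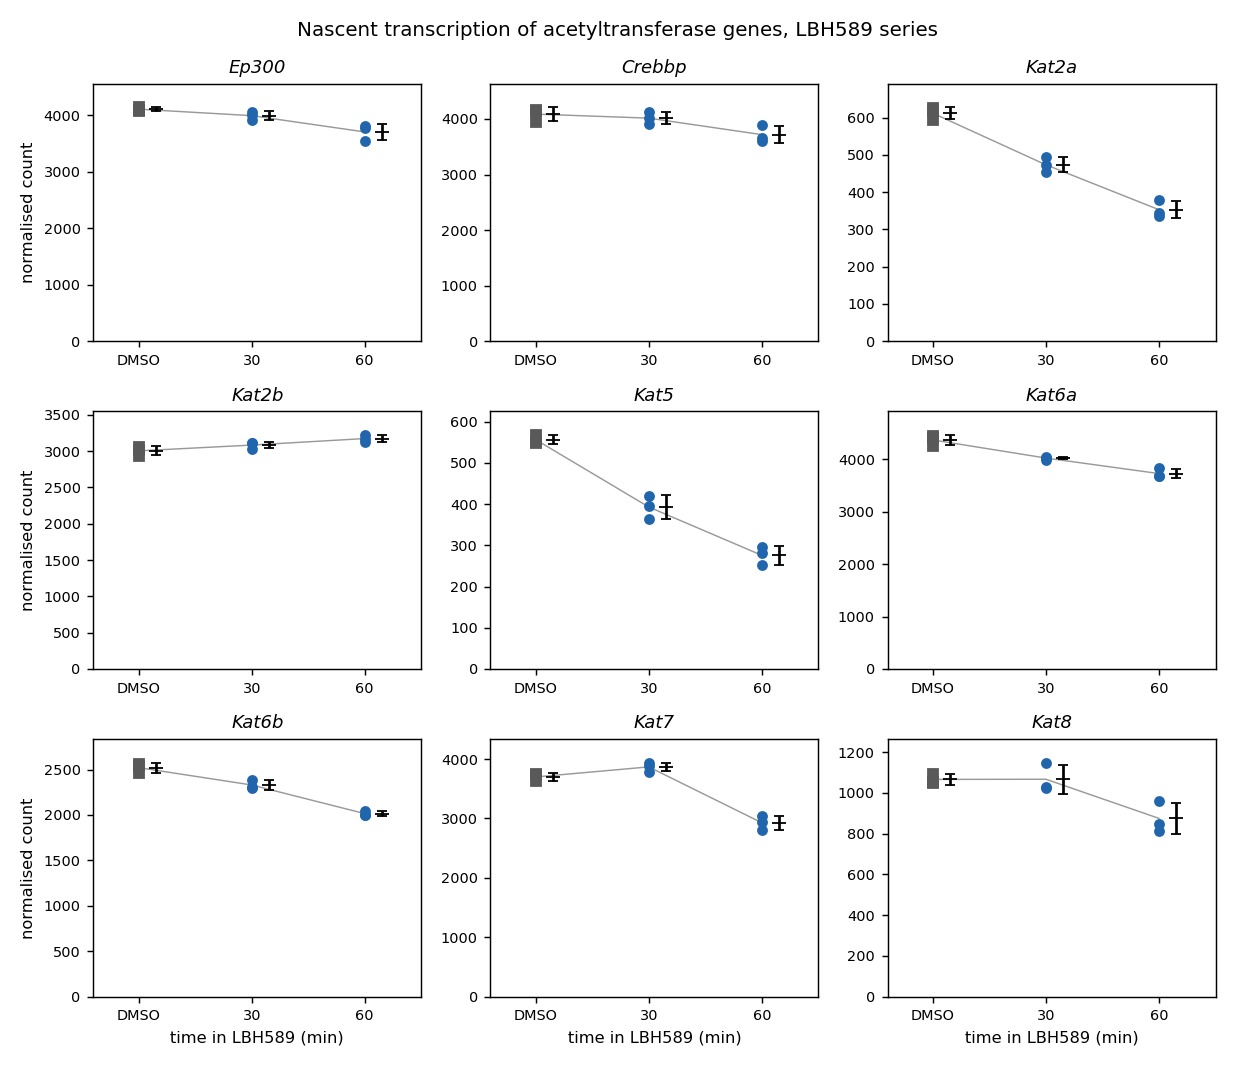
Normalised count (y axis, from 0) of each gene in every library of the LBH589 series against time in LBH589 (x axis, min, evenly spaced), with the mean and SD (n = 3) drawn beside the points. Kat5 and Kat2a declined at both times (Kat5 to 251 to 296 at 60 min), and Kat7 and Kat8 were lower at 60 min only.

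**Figure D3:**
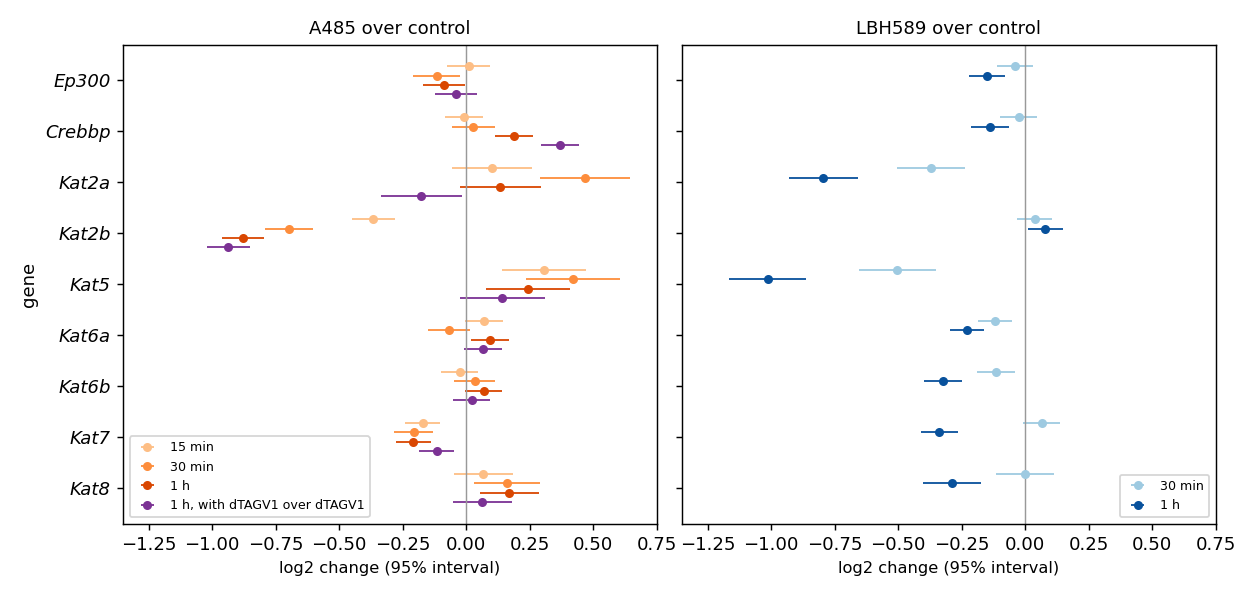
Log2 change with 95% interval (x axis) of each gene (y axis) under A485 at 3 times over DMSO and, in purple, with the degrader over the degrader alone (left panel), and under LBH589 at 2 times over DMSO (right panel). Kat2b is the farthest to the left under A485 (-0.88 at 1 h) and slightly right of 0 under LBH589 (0.08), while Kat5 lies right of 0 under A485 and at -1.01 under LBH589.

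Set side by side, the 1 h values of A485 and LBH589 were -0.88 and 0.08 for Kat2b, 0.24 and -1.01 for Kat5, 0.13 and -0.79 for Kat2a, 0.19 and -0.14 for Crebbp, 0.17 and -0.29 for Kat8, 0.09 and -0.23 for Kat6a and 0.07 and -0.32 for Kat6b. The signs thus differed for these 7 genes, of which 5 were called in both comparisons and Kat2a and Kat6b were not called under A485. Of all genes, 62.6% were called after 1 h of A485 and 67% after 1 h of LBH589. How many of all genes differed in sign, or were called in both, was not counted. These counts are therefore not shown to be particular to the members. The A485 calls of Kat5, Kat6a and Kat8 and the LBH589 calls of Kat2b and Crebbp were each lost under some alternatives. Ep300 had -0.09, not called, and -0.15, and with quantile normalization 0.15, called as higher, and -0.01, not called. Kat7 was lower in both (-0.21 and -0.34), apart from its sign under A485 with quantile normalization. The 2 compounds were tested in separate series that were normalized separately, and the difference between them was not tested.

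Partner genes of each enzyme were counted from written lists, and each count is to be read against all genes: after 1 h of A485 62.6% of genes passed (3703 higher and 4186 lower), and after 1 h of LBH589 67% (4064 higher and 4348 lower). With quantile normalization all genes had 5590 higher and 3132 lower after 1 h of A485, and 4202 higher and 4089 lower after 1 h of LBH589. Of 12 tested cofactors of p300 and CBP, 0 were higher and 7 lower after 1 h of A485 (median log2 change -0.21, all genes 0.00), a share called near that of all genes, with the largest changes in Cited4 (-1.73 ± 0.50, adjusted p = 0.00318) and Cited2 (-1.59 ± 0.28, adjusted p = 1.06e-05), both of which bind p300 and CBP, and in the steroid receptor coactivator Ncoa3 (-0.78 ± 0.04). With quantile normalization 6 of the 12 were higher and 5 lower, so the count's direction rested on the scaling. After 1 h of LBH589, 2 of the 12 were higher and 8 lower (median -0.23), led by the CREB relative Atf1 (-0.74 ± 0.04), the methyltransferase Carm1 (-0.55 ± 0.03) and, higher, the CREB coactivator Crtc2 (0.46 ± 0.06). With quantile normalization 3 were higher and 6 lower there, with a median of -0.06. Of 23 SAGA and ATAC partners of Kat2a and Kat2b, 7 were higher and 8 lower with A485 (median -0.02), against 62.6% of all genes called, led by Taf9 (-0.63 ± 0.17), Tada2a (0.55 ± 0.04) and Taf6l (0.55 ± 0.07). With LBH589, 4 were higher and 15 lower (median -0.27), against 67% of all genes called, led by Sgf29 (-0.67 ± 0.05), Taf5l (-0.59 ± 0.03) and Zzz3 (-0.56 ± 0.04). Quantile normalization gave 12 higher and 3 lower with A485 and 4 higher and 14 lower with LBH589.

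All 15 TIP60 complex partners of Kat5 were lower after 1 h of LBH589 (median -0.30), where 67% of all genes passed and 4348 of 12553 were lower, led by the YEATS reader Yeats4 (-0.92 ± 0.07), Ing3 (-0.78 ± 0.05) and Epc1 (-0.62 ± 0.03), while 8 were lower and 0 higher at 30 min, when 39.7% of all genes passed (2232 higher and 2746 lower). With quantile normalization 14 were lower and 0 higher at 1 h. With 1 h of A485, 7 were higher and 6 lower (median -0.04, 62.6% of all genes called), led by Ing3 (0.55 ± 0.07), Mbtd1 (-0.47 ± 0.04) and Epc1 (0.43 ± 0.03), and quantile normalization gave 9 higher and 1 lower. Of the 9 BRPF, JADE and ING partners of the Moz, Morf and Hbo1 enzymes, 1 was higher and 6 lower with LBH589 (67% of all genes called), led by Meaf6 (-0.84 ± 0.05), Brpf3 (-0.82 ± 0.05) and Ing5 (-0.76 ± 0.04). With A485, 2 were higher and 5 lower (62.6% of all genes called), led by Brd1 (-0.40 ± 0.04), Brpf1 (-0.35 ± 0.05) and Brpf3 (0.35 ± 0.05). Of the 11 MSL and NSL partners of Kat8, 0 were higher and 10 lower with LBH589 (67% of all genes called), led by Mcrs1 (-0.97 ± 0.07), Hcfc1 (-0.66 ± 0.04) and Kansl2 (-0.55 ± 0.03), and 3 were higher and 5 lower with A485 (62.6%), led by Msl1 (-0.39 ± 0.06), Hcfc1 (-0.31 ± 0.04) and Msl2 (-0.28 ± 0.04). With quantile normalization the BRPF, JADE and ING list had 3 higher and 2 lower under A485, and the MSL and NSL list 7 higher and 2 lower, while under LBH589 they had 2 higher and 4 lower, and 1 higher and 8 lower.

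Other acetyltransferases and the opposing enzymes were counted in the same way, again against 67% of all genes called after 1 h of LBH589 and 62.6% after 1 h of A485. Of 12 other lysine acetyltransferases, 5 were higher and 4 lower with LBH589 (median 0.09), led by the cohesin acetyltransferase Esco2 (0.43 ± 0.05), Nat10 (-0.39 ± 0.03) and Atf2 (0.27 ± 0.04). With A485, 3 were higher and 3 lower, led by Esco2 (-0.75 ± 0.06), Cdyl (-0.46 ± 0.03) and the tubulin acetyltransferase Atat1 (-0.43 ± 0.08). Of 16 deacetylases, 8 were higher and 5 lower with LBH589 (median 0.21), led by Hdac5 (1.28 ± 0.08), the tubulin deacetylase Hdac6 (1.02 ± 0.08) and Hdac7 (-0.82 ± 0.03). With A485, 8 were higher and 2 lower (median 0.11), led by Hdac7 (-1.91 ± 0.05), Hdac9 (0.97 ± 0.36) and Hdac6 (0.52 ± 0.09). With quantile normalization the deacetylases had 10 higher and 2 lower under A485 and 8 higher and 4 lower under LBH589, and the other acetyltransferases 7 higher and 3 lower under each.

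Genes with the most similar profile to each member were found by Pearson correlation of group means over the 13 groups of the A485 and LBH589 series, each centred on its own mean, among 12401 genes. Kat2b was most like Rcsd1, Arhgef10l and Tnfaip8 (r = 0.99 each), which changed by -3.15, -2.36 and -2.66 on the log2 scale after 1 h of A485, further than Kat2b itself. Kat5 was most like Zfp628, Prmt7 and Zfp335 (0.97, 0.95 and 0.95), and Kat2a most like Kxd1, 4632404H12Rik and 1700113A16Rik (0.95, 0.93 and 0.91). Crebbp was most like Ppp6r3, Rrm1 and Acvr2b (0.97, 0.96 and 0.95), Ep300 like Pcbp1, Actr3 and Gm11944 (0.95, 0.93 and 0.92), and Kat7 like Acin1, Nup210 and Tm9sf3 (each 0.95). Kat6a was most like Htt, Cnot4 and Zfp148 (0.92, 0.89 and 0.89), Kat6b like Trmo, Ccdc130 and 5031425E22Rik (0.93, 0.92 and 0.92), and Kat8 like Gpn2, Dclre1a and Nsun3 (0.96, 0.91 and 0.91). Among the members, Kat2a and Kat5 were closest (0.85), and Crebbp and Kat2b most opposed (-0.85). Groups of a series share its scaling and its centring, so these values describe the groups and carry no test.

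With the degrader alone in the A485 series, 1, 0 and 4 of the 9 genes passed at 15 min, 30 min and 1 h. After 15 min this was 1 member (Kat8, -0.16 ± 0.06, adjusted p = 0.0447), against 16.7% of genes; the call was lost without any DMSO library, or without degrader replicate 4 or 5 (adjusted p 0.0568 to 0.17). At 30 min 0 passed in limma and in edgeR, against 20.6%; Kat2a (0.20 ± 0.08, adjusted p = 0.0711) had an unadjusted p under 0.05. At 1 h 4 passed, against 25.6%. Kat2b held 3504, 3882 and 3552, against 3184, 3322 and 3167 in DMSO, and rose by 0.18 ± 0.04 (adjusted p = 0.00153), with no overlap. Kat2a (0.25 ± 0.08, adjusted p = 0.0152) and Kat5 (0.22 ± 0.08, adjusted p = 0.0478) were also higher, and Crebbp was lower (-0.12 ± 0.04, adjusted p = 0.0153). The call of Kat5 was lost in 8 of 14 alternatives (adjusted p 0.0548 to 0.232): in edgeR, with no filter, with the replicate block, with quantile normalization, and without DMSO replicate 4 or 5 or degrader replicate 5 or 6. That of Crebbp was lost without DMSO replicate 6 or degrader replicate 5 or 6 (adjusted p 0.0579 to 0.109), and that of Kat2a without degrader replicate 4 (0.0593). Higher calls made up 65.2% and 57.5% of all calls at 15 min and 1 h as deposited, against 53.6% and 46.5% with quantile normalization.

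In the time course of the degrader, 0 or 1 member passed at each time. At 15 min 0 members passed in limma or edgeR, with none at an unadjusted p under 0.05, against 6.93% of genes. Without the libraries that stood apart 2 passed there, Kat2a as lower (-0.37, adjusted p = 0.0336) and Kat6b as higher (0.21, adjusted p = 0.00127). Ep300 held 4924, 4988 and 5024 in the libraries labelled degrader 1 h and 4841 and 4980 in those labelled degrader 2 h, against 5775, 5734 and 5712 in DMSO. It fell by 13.3% at 1 h (-0.21 ± 0.06, adjusted p = 0.0385) and 14.4% at 2 h (-0.23 ± 0.07, adjusted p = 0.0488), the 1 member called at each time, against 11.3% and 9.39% of genes. The libraries that stood apart are in neither of these groups nor in DMSO. Leaving them out therefore changed the shared estimate of spread and not these log2 changes. Without them the adjusted p-values of Ep300 were 6.12e-05 and 8.05e-05, and 2 and 5 members passed, among them Kat2b, lower at both times (-0.15 and -0.18). The others at 2 h were Crebbp (-0.25) and Kat6b (-0.28) as lower and Kat7 (0.20) as higher. All shares of genes given for this series are of the fit with every library used. The share of all genes that passed without the libraries that stood apart is not given here. Member counts of that fit therefore have no background to be read against. With the libraries that stood apart kept in, no member passed at 1 h or 2 h when any 1 library of the groups compared was left out. The calls of Ep300 were lost in 8 of 15 and 8 of 14 alternatives, edgeR (adjusted p = 0.0543 and 0.0538) and the replicate block (0.0829 and 0.111) included. Higher calls made up 72.2% and 72.1% of all calls at 1 h and 2 h as deposited, against 60.4% and 61.2% with quantile normalization.

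Kat7 was the 1 member called at 30 min, against 13.9% of genes. It held 5907, 5682 and 9577 in the degrader 30 min libraries, against 5082, 5154 and 5099 in DMSO. The value of 0.42 ± 0.13 (adjusted p = 0.0418) rested on replicate 3, which stood apart: without that library it was 0.18 (adjusted p = 0.0217). The call was lost in 8 of 16 alternatives, among them leaving out any 1 of the DMSO libraries (adjusted p 0.0957 to 0.113) and quantile normalization (0.0604). Without both libraries that stood apart Ep300 (-0.12, adjusted p = 0.0275) and Kat6b (0.13, adjusted p = 0.044) passed as well. Similar levels to that replicate, 9061 and 9156, were found after 30 min of washout, against 5736 and 5985 in the libraries labelled degrader 2 h. That comparison was added after the values were seen. Kat7 rose by 55.5% in it (0.64 ± 0.16, adjusted p = 0.0166), again the 1 member called, against 24.3% of genes, and by the same 0.64 with an adjusted p = 1.06e-09 without the libraries that stood apart, when Crebbp (0.16) and Kat5 (0.30) passed as well. The call of Kat7 was lost without any 1 of the 4 libraries compared (adjusted p 0.0764 to 0.111). The 1 h washout library held 6385 and the 2 h washout libraries 5089 and 4936, within or below the range of DMSO, so Kat7 was high at 30 min of washout and no longer at 2 h.

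After 2 h of washout 1 member passed, against 17.3% of genes. Kat2b held 3370 and 3037, against 3972 and 3961 in the libraries labelled degrader 2 h, and was lower (-0.31 ± 0.09, adjusted p = 0.0263), a call lost without any 1 of the 4 libraries compared (adjusted p 0.0516 to 0.223) and with quantile normalization (0.0672). Kat2a held 727 and 744, against 480.3 and 426, with a log2 difference of 0.70 ± 0.25 that missed the threshold (adjusted p = 0.0618) and passed without the libraries that stood apart (adjusted p = 0.000426), as did Crebbp (-0.20), Kat6b (-0.14) and Kat7 (-0.23), each lower. Gene length moved with this comparison: over the 2603 genes of at least 60 kb the median log2 change was -0.13, and over the 4860 genes under 15 kb it was 0.21. Its part in the values of Kat2b (105.9 kb) and Kat2a (7.7 kb) was not tested.

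**Figure D4:**
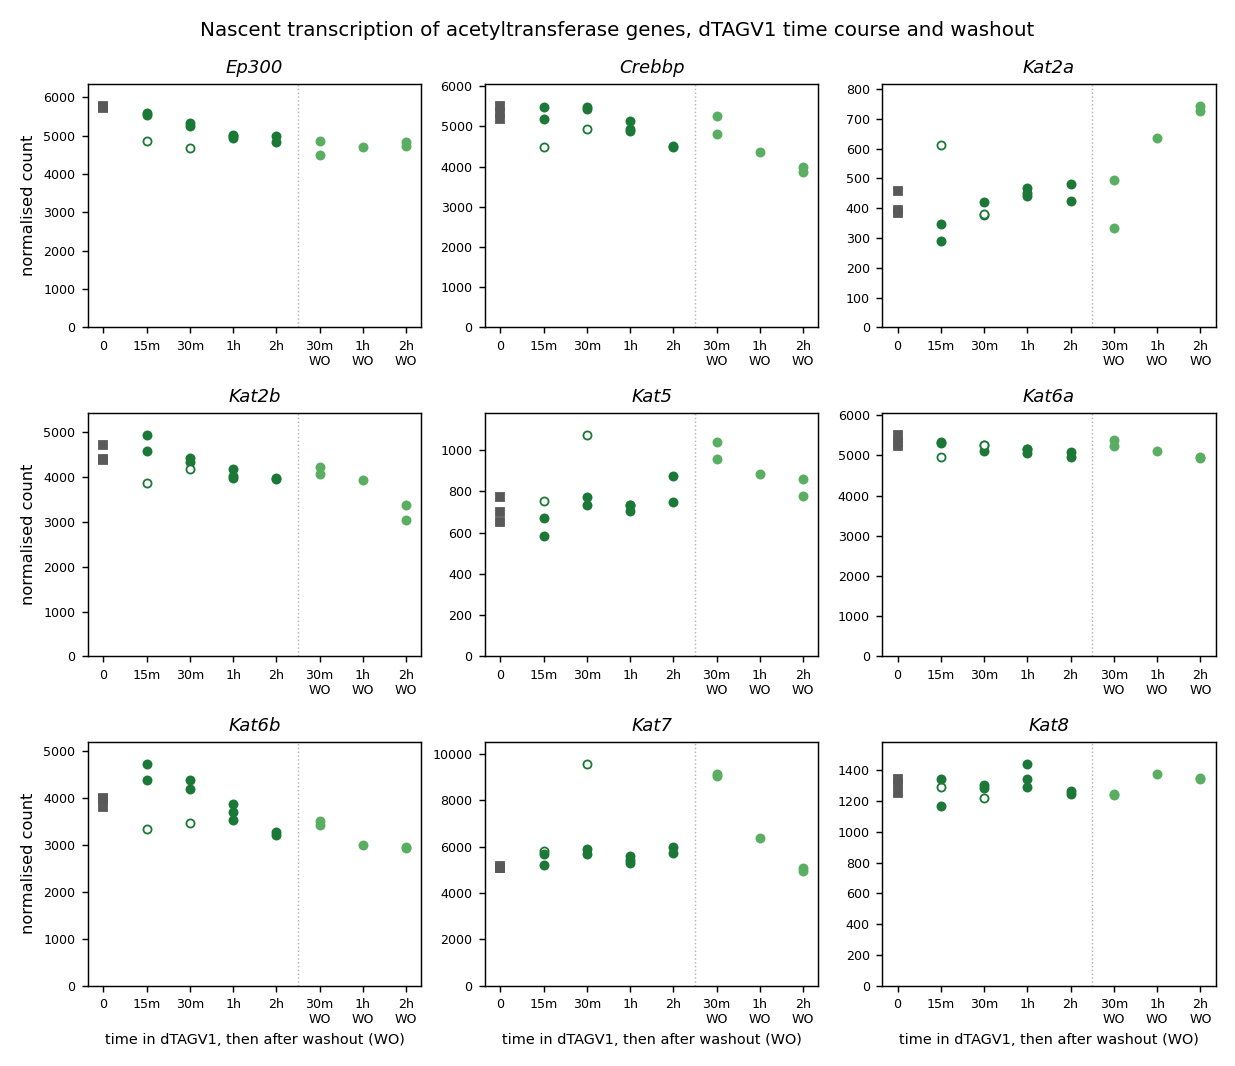
Normalised count (y axis, from 0) of each gene in every time course library used, by time in dTAGV1 and then by time after washout (x axis, evenly spaced; squares DMSO, open circles the 2 libraries that stood apart from their groups). Kat7 stands at 9061 and 9156 at 30 min of washout, and Ep300 lies below DMSO in all libraries after DMSO.

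In the LBH589 washout series, 1 h of washout was set against 30 min. Kat5 held 211, 226 and 146 at 1 h, against 262, 353 and 294 at 30 min, with no overlap, and was lower (-0.65 ± 0.19, adjusted p = 0.0309). It was the 1 member called, against 23.3% of genes, and the call was lost without any one of the 3 libraries of 30 min (adjusted p 0.0521 to 0.138). Kat2a held 319, 375 and 385 at 1 h, against 297, 317 and 248 at 30 min, and did not pass (0.33 ± 0.13, adjusted p = 0.102). Here too long genes had a lower median (-0.12) than short ones (0.16), while Kat5, a short gene, was lower. With no DMSO in that series, the share of LBH589 in these levels cannot be told apart from that of washout.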

How the data were processed

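PRO-seq values of 62 of 65 libraries in 4 experiments were used. Per the labels, the deposited gene values are counts that the authors normalized with DESeq2, read here as a non-negative signal. The submitters' processing notes list, without roles, the tools DESeq2 1.46.0, featureCounts 2.0.1, HOMER, bedtools, SAMtools 1.16.1 and Bowtie2 2.2.2, and as builds dm3 and mm39. The sources used here give neither strand use nor filters. Divided by the step of each library, 100% of values up to 1000 reads were whole within 0.1, which gave the depths; on those reads edgeR called 7719 genes after 1 h of A485 and 8410 after 1 h of LBH589, against 7889 and 8412 in limma. Kat2a and Kat5 had the lowest counts and so the least precision.

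Tests used limma 3.58.1 under R 4.3.3 (lmFit, then eBayes with a trend) on log2(value + 1) for genes whose mean reached 10, with all groups of a table in 1 model, with Benjamini-Hochberg adjustment over all genes at 0.05. Fold changes on this scale understate the change of low genes. Errors are the SE of the model or the SD of libraries. Alternatives were edgeR 4.0.16 with TMM on the recovered reads, quantile normalization, a pseudocount of 10, no filter, a mean of at least 100, the lowest transcript, only the groups compared, the replicate number as a block where it could be fitted, and leaving out libraries.

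The time course gene table names 22 libraries but has values for 21. Over 596 gene and regulatory-site pairs, the column headed as replicate 3 of the 30 min washout had a correlation of -0.40 with the site column so named and of 0.76 with the following library. It and 1 h washout replicate 2 were left out (2 columns not settled), and 1 column was empty. Positions and promoters are from RefSeq on GRCm38.p6, not the authors' build. Only Prss8 among protein-coding neighbours overlaps a member (Kat8, by 122 bases).

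The members and lists were chosen with earlier results of these data known. Named are all members, up to 3 genes per list with the largest change among those called after 1 h of A485 and after 1 h of LBH589, the 3 genes most alike to each member, and Cbfa2t3. Same-numbered libraries did not deviate together (mean correlation -0.01 to 0.03), so numbers were not taken as pairs. This check covers only groups that share replicate numbers. In the LBH589 series these were 3 pairs of libraries, none of them with DMSO.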

Additional observations from a re-analysis of the deposited data

Results flagged for a closer look

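Crebbp responded to 1 h of A485 differently with and without the degrader in the test of the difference itself (interaction 0.18 on the log2 scale, adjusted p = 0.0204), a call lost in 4 of 20 alternatives, each leaving out 1 library (adjusted p 0.0517 to 0.0704). In the other cases, every degrader library of the A485 series lay on 1 side of its DMSO mean and every library of the time course on the other side, and the difference between the series was not tested. Ep300 at 15 min had log2 changes of -0.11 in the time course and 0.065 in the A485 series. Kat2b had -0.058 and 0.057 at 30 min, and -0.15 and 0.18 at 1 h, in the same order of series. Kat6a at 15 min had -0.041 and 0.026, and Kat7 at 30 min had 0.42 and -0.059. Of these, Kat2b at 1 h passed in the A485 series and Kat7 at 30 min in the time course. The time course values include the libraries that stood apart; without them Ep300 at 15 min was -0.046, Kat6a at 15 min -0.0072, Kat2b at 30 min -0.036 and Kat7 at 30 min 0.18, and Kat2b at 1 h stayed at -0.15.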

How the results depend on the processing

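The falls of Kat2b under A485 and of Kat5 and Kat2a under LBH589 kept their direction and passed in every alternative run, with 1 h values of -0.90 to -0.67 (Kat2b), -1.07 to -0.95 (Kat5) and -0.85 to -0.76 (Kat2a). Quantile normalization gave 8 members called for A485 at 15 min and for both agents over the degrader at 30 min and 1 h. Over all genes 7729, 8246 and 8906 passed there, against 6941, 7512 and 7887 as deposited. It turned the sign of Crebbp (0.11) and Kat6b (0.083) for A485 at 15 min, Ep300 (0.12), Kat6a (0.17) and Kat7 (0.044) at 30 min, and Ep300 (0.15) and Kat7 (0.035) at 1 h. With the degrader it turned Ep300 (0.047), Kat6b (0.030) and Kat7 (0.053) at 15 min, Ep300 (0.17), Kat6a (0.21), Kat6b (0.11) and Kat7 (0.10) at 30 min, and Ep300 (0.19) and Kat7 (0.12) at 1 h. In the other comparisons it turned 9 values of members, of which 0 passed in either fit. The median of all genes moved by 0.11 to 0.18 for A485 with and without the degrader, and the cause was not tested.

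The pairing check had found no pairs among groups that share replicate numbers. With the replicate number as a block, time course counts were 0 at 30 min, 1 h and 2 h. Where it could be fitted, the block moved no other count by over 1.5 times. It could not be fitted for A485 against DMSO or both agents against the degrader at 30 min and 1 h, or for LBH589 against DMSO. The 2 h washout comparison could not take it either. The groups compared there share no replicate number. In those for A485, both agents and LBH589, a difference between sets of libraries could not be told apart from the treatment. Such a difference was not tested. Leaving out 1 library at a time gave 2 to 4 members for A485 at 1 h over 30 min, 0 to 2 for the interaction at 1 h, 0 to 1 and 2 to 3 for the degrader at 15 min and 1 h in the A485 series, 0 to 2 for the time course at 30 min, 0 to 0 at 1 h and 2 h and in both washout comparisons, and 0 to 3 for the LBH589 washout. Other time course counts that moved: edgeR gave 0 at 1 h and 0 at 2 h, no filter 0 at 30 min and 0 at 2 h, a pseudocount of 10 and a mean of at least 100 each 2 at 2 h, and quantile normalization 3 at 2 h and 0 for 2 h washout. Only the groups compared gave 0 at 30 min, 2 at 1 h, 5 at 2 h, 3 at 30 min washout and 5 at 2 h washout. Without the libraries that stood apart the counts were 2, 3, 2 and 5 at 15 min, 30 min, 1 h and 2 h, and 3 and 5 for the washouts. The shares of all genes in that fit are not given here. Without the 5 libraries with conflicting labels it was 0 at 30 min. Causes were not tested. Low counts limit Kat2a and Kat5 most: their SE after 1 h of A485 was 0.08, against 0.03 to 0.06 for the other genes.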
